A study of Mus musculus with 25 samples.

Results

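The last step of a mouse follicle culture, from day 6 to day 8, was compared on 6 bead arrays, 3 for each day, out of 25 in the series. The arrays were chosen by their labelled day alone, and all 10688 genes that passed the filter on dim probes were compared. Follicles came from CD-1 mice 16 days old. They were multilayered secondary follicles of 150 to 180 µm, taken out mechanically, enclosed singly in alginate (3% per the series title) and grown in medium with 10 mIU/ml recombinant FSH, 5 µg/ml insulin and 1 mg/ml fetuin. As labelled, both days had the same medium and differ only in the length of culture. Neither group carries a mutation, a transgene or an ovulatory stimulus in the labels. Each array is a pool of 20 to 40 follicles, with the 3 repeats of a day described as independent experiments, so the spread between repeats is that between pools and says nothing about single follicles. The other 14 follicle arrays (day 0, before culture, and days 2, 4 and 5) entered the same fit, and the 5 reference arrays were not used here.

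A growing follicle is an oocyte inside layers of granulosa cells, surrounded by a basement membrane and by theca cells. Under FSH the granulosa cells divide, take up the synthesis of oestradiol from theca androgen and come to carry the receptor for luteinising hormone, which is how a late follicle becomes able to answer the ovulatory surge. Retinoic acid made by aldehyde dehydrogenases, matrix proteins around the granulosa cells, and the balance between division and differentiation all change as follicles pass from the secondary to the antral stage.

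The follicle identity of the arrays was plain at both days. On the log2 signal scale, Inha, the inhibin alpha subunit of granulosa cells, averaged 14.7 at day 6, Cyp17a1, the androgen-forming enzyme of theca cells, 12.6, and Gdf9, the oocyte growth factor, 11.7. None of these genes passed the threshold between day 6 and day 8, with changes given below. Star, which carries cholesterol into mitochondria, was not above background on any day 6 array. Markers of other cells were present in part. Of 13 macrophage genes tested 4 (Adgre1, C1qa, C1qb and C1qc) were not above background on any of the 6 arrays, of 9 smooth muscle and pericyte genes 2 (Des and Rgs5) and of 6 red cell genes 3 (Hba-a1, Alas2 and Bpgm), while the rest of each list was above it on at least 1 array. In a pool of whole follicles, fewer cells of a type and less RNA per cell cannot be told apart.

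Day 6 repeat 1 stood apart from the other arrays. On it 1314 genes lay at least 1 log2 unit from the mean of the other day 6 arrays, against 36 to 314 genes on the other 5 arrays set against their own day mates. Its mean correlation with the other day 6 arrays was 0.951, where theirs were 0.970 and 0.972. Ribosomal protein genes were lower on it in 51 of 55 cases (median difference −0.84), oocyte genes in 21 of 28 (−0.54) and respiratory chain genes in 15 of 22 (−0.56), while stromal matrix genes were higher in 18 of 21 (0.59) and antral granulosa genes in 12 of 14 (0.57). Calls that did not hold without that array are named below with the adjusted p they then had, and the part it plays in results that move with it was not tested.

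**Figure D1:**
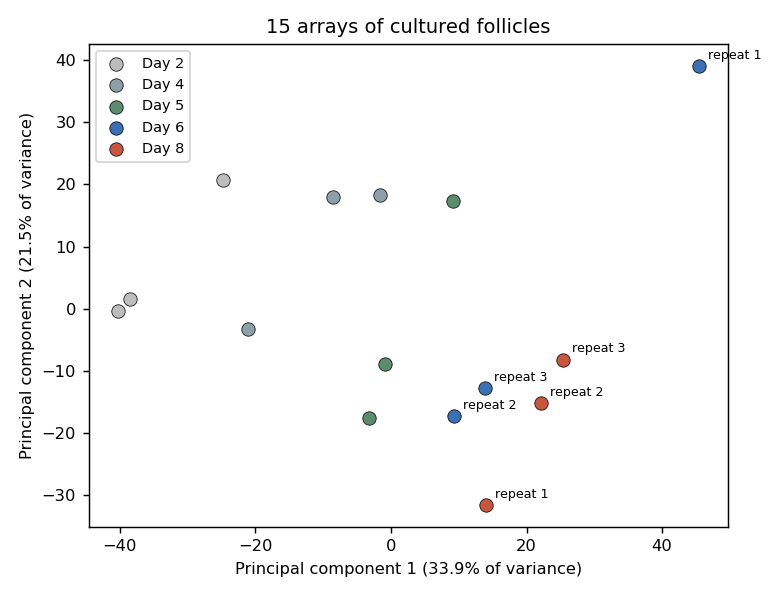
Each point is 1 array of cultured follicles, placed by the first and the second principal component of the log2 signals of all genes tested (33.9% and 21.5% of the variance) and coloured by day. The day 8 arrays lie beside day 6 repeats 2 and 3, and day 6 repeat 1 lies alone at the upper right.

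Few genes passed the threshold between day 6 and day 8, and among them the rises were larger than the falls at the median. By fitted change, Sectm1b, Aldh1a7, Ibsp, Klk1b24 and Ces3 led the rises, and Sspn, Erdr1 and Klf1 the falls. In the limma fit over 20 arrays with Benjamini-Hochberg adjustment, 82 of 10688 genes passed an adjusted p of 0.05 (0.767%): 51 rose (0.477%) and 31 fell (0.29%). The median log2 change was 1.08 among the genes that rose and −0.85 among those that fell, 30 rises and 9 falls reached 1 log2 unit, and the median change over all genes was 0.00. At an unadjusted p of 0.05 there were 1161 genes. The step before, day 6 against day 4, had 1035 genes past the same threshold (9.68%).

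The 3 day 8 arrays did not overlap with the 3 day 6 arrays in 1280 genes (12.0%), 643 of them higher and 637 lower at day 8, and all 82 called genes were among these. Without day 6 repeat 1, 81 genes passed (0.758%), 47 rising (0.44%) and 34 falling (0.318%). Only 49 of these were among the 82, 32 that rose and 17 that fell, and all 82 kept their direction. When each of the 6 arrays was left out in turn, 25 genes passed every time, and the count was lowest, at 34, without day 8 repeat 1. It was 50 without day 8 repeat 3 and 51 without day 6 repeat 2. Among the genes described below, Socs3, Srm, Gadd45b, Adamts19, Mapk12, Mthfd1, Sectm1a, Angpt2, Sult1a1, Serpina5, Serpina3g, Tex19.2 and Tspan8 passed without day 6 repeat 1 but not in each of the other fits, with a highest adjusted p between 0.0506 for Adamts19 and 0.145 for Angpt2. In the 15 arrays of cultured follicles alone, 23 of the 82 genes passed, and with the 6 arrays alone 3 genes did. The day 0 arrays left out there had a median SD of 0.169, against 0.276 at day 6 and 0.214 at day 8. The parts of that spread and of the smaller number of arrays in the loss were not tested. Sizes and split moved with the normalization. Taken from the authors' values, 53 of the 73 called genes held there had changes more than 1.5 times smaller, and without background correction 39 of the 82 did. The authors' values called 91 rises and 34 falls, and median scaling 48 and 11. Array weights, with the normalization unchanged, called 133 rises and 121 falls.

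**Figure D2:**
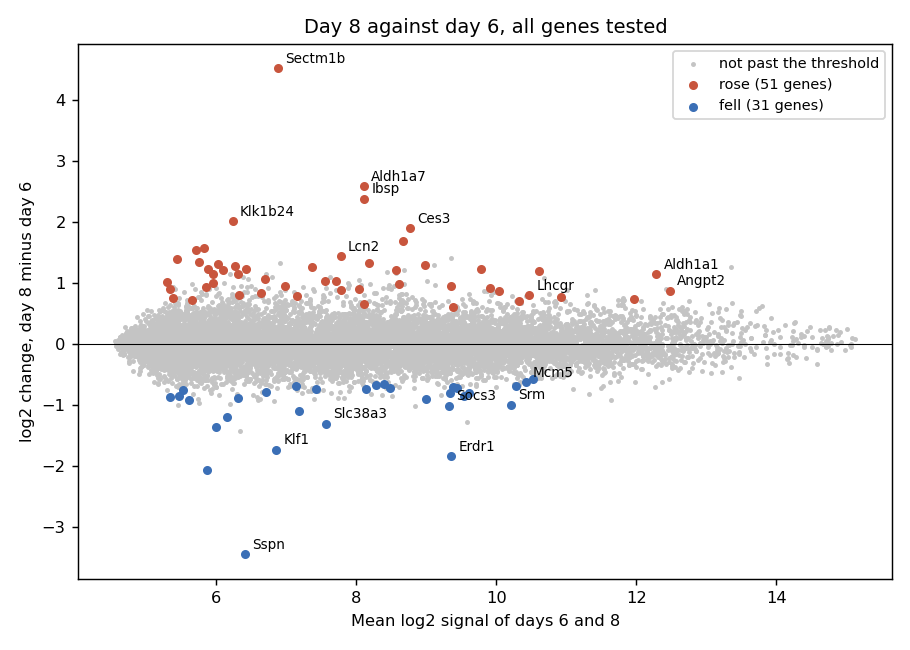
Each point is 1 of the 10688 genes, with the mean log2 signal of both days on the horizontal axis and the log2 change from day 6 to day 8 on the vertical axis. The 51 genes that rose (red) reach a fitted 4.53 at Sectm1b, the 31 that fell (blue) reach a fitted −3.45 at Sspn, and grey genes did not pass the threshold.

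The largest change of the step was that of Sectm1b, which encodes a protein with secreted and transmembrane forms. It read 4.73, 4.57 and 4.54 on the day 6 arrays and 9.02, 9.31 and 9.09 on the day 8 arrays, so that the days were far apart with little spread in either. It was not above background on any day 6 array, and its level at day 8 was higher by at least 12.9-fold (fitted log2 change 4.53, SE 0.40, adjusted p = 3.25e-06). The gene did not climb steadily through culture. From an average of 5.38 ± 0.22 (SD, n = 5) before culture it went to 9.08 ± 0.52 (n = 3) by day 2, was back at 5.25 ± 0.92 on day 4, and averaged 6.97 ± 0.93 on day 5 before the 4.61 ± 0.10 of day 6. Day 2 and day 8 were thus its high days. Its neighbour Sectm1a, whose transcript is similar enough that signals can be shared, also had no day 6 array above background and was higher at day 8 by at least 1.24-fold (adjusted p = 0.0175).

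Of the retinaldehyde dehydrogenase genes, Aldh1a1 and Aldh1a7 rose. Aldh1a1, which oxidises retinaldehyde to retinoic acid, was already among the brighter genes, at 11.85, 11.63 and 11.65 on the day 6 arrays, and stood at 12.92, 12.78 and 12.90 on the day 8 arrays. It rose 2.23-fold (log2 1.16, SE 0.18, adjusted p = 0.00230), a change that passed in each of the 6 fits with an array left out. Its close relative Aldh1a7 went from 6.45, 7.24 and 6.76 to 9.56, 9.29 and 9.38, a rise of 2.60 (SE 0.35, adjusted p = 0.000595). The pair are near-identical in sequence, so a probe of one can take signal from the other, which was not tested. Of the 11 retinoid genes measured, these were the only calls. Aldh1a2, the other retinaldehyde dehydrogenase of the ovary, read 0.69 (adjusted p = 0.288), the retinol-oxidising Adh1 −0.05 and the retinoic acid hydroxylase Cyp26b1 0.35. The list's median of 0.22 was 0.09 without day 6 repeat 1, on which 8 of its 11 genes were low.

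Ibsp, Klk1b24 and Ces3 followed. Ibsp, bone sialoprotein, an acidic protein of mineralised matrix, read 6.52, 6.89 and 7.35 at day 6 and 9.71, 8.95 and 9.28 at day 8, a 5.24-fold rise (log2 2.39, SE 0.22, adjusted p = 3.25e-06). It had stood between 5.42 and 5.88 in the day means up to day 5, so its level was highest on the last day. Klk1b24, a kallikrein serine protease of a large family of similar genes, was above background on 1 of 3 day 6 arrays, at 5.097, 4.79 and 5.78, and reached 7.34, 7.35 and 7.04 (log2 2.02, SE 0.18, adjusted p = 3.25e-06). Ces3, a carboxylesterase, rose from 7.19, 8.45 and 7.82 to 9.80, 9.63 and 9.76 (1.91, SE 0.28, adjusted p = 0.00179). In Ces3 day 6 repeat 1 was the lowest array, and the rise was 1.59 without it (adjusted p = 0.00696).

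Some protease inhibitor genes rose. Eppin, an inhibitor known from the male tract, read 6.66, 8.37 and 8.43 at day 6 and 9.77, 9.39 and 9.41 at day 8. The change of 1.70 (SE 0.34, adjusted p = 0.0188) was 1.12 without day 6 repeat 1 (adjusted p = 0.0299), and its adjusted p was 0.12 without day 8 repeat 1. Further inhibitors past the threshold, named after their values were seen, were the serpins Serpina5 (1.20), Serpina3g (1.22) and Serpina3n (0.88), Spink8, which was not above background at day 6 and at least 1.27-fold higher at day 8, and Wfdc6a (0.89). Without day 6 repeat 1 Serpina3n (adjusted p = 0.152) and Wfdc6a (adjusted p = 0.144) did not pass. Svs5, a seminal vesicle protein, rose by 1.15. Serpina3g and Serpina3n belong to a cluster of near-identical copies. Lcn2, an acute-phase lipocalin that binds bacterial siderophores, rose by 1.45 (SE 0.28, adjusted p = 0.0175), from 6.67, 7.05 and 7.43 to 8.13, 8.35 and 9.03. The Lcn2 call did not pass without day 6 repeat 1 (1.26, adjusted p = 0.0700) or without day 8 repeat 3 (adjusted p = 0.10). It was the only call among 14 acute-phase and complement genes, 12 of which were higher at day 8 (median 0.32, or 0.07 in the authors' values). The serum amyloid gene Saa3 read 0.97 (adjusted p = 0.403) and Serping1 −0.10.

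**Figure D3:**
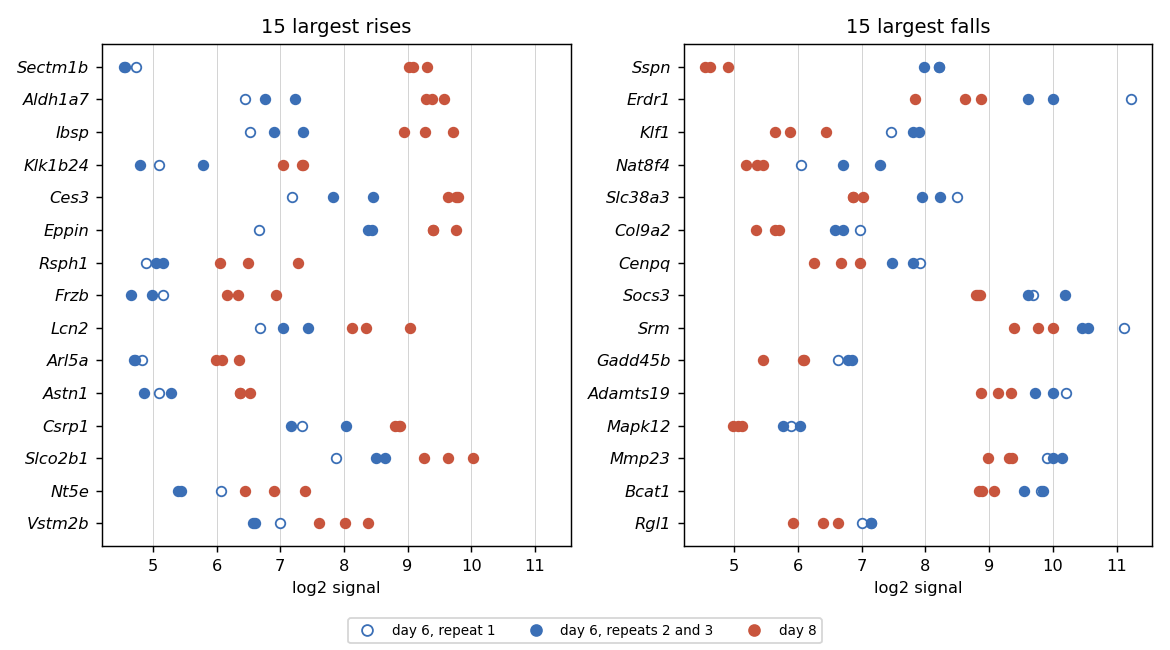
Log2 signals of the 15 named genes with the largest rise (left) and the 15 with the largest fall (right) on each of the 6 arrays, with day 6 repeat 1 as an open blue circle, the other day 6 arrays in blue and day 8 in red. The days do not overlap in any of these genes, and Eppin, Slco2b1 and Erdr1 show day 6 repeat 1 apart from its day mates.

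Other large rises came from genes of several kinds. Frzb, a secreted antagonist of WNT ligands, was not above background at day 6 (5.15, 4.98 and 4.66). It read 6.93, 6.17 and 6.34 at day 8, a rise of at least 2.04-fold (adjusted p = 0.000392). Rsph1, a radial spoke protein of motile cilia, was likewise at background at day 6. It read 7.28, 6.49 and 6.06 at day 8, at least 2.23-fold more (adjusted p = 0.00230), below its day 0 mean of 8.19 ± 0.16. Astn1, astrotactin, was at least 1.96-fold higher (adjusted p = 7.11e-06), with 6.52, 6.38 and 6.37 at day 8 against values no higher than 5.28 at day 6. These 3 genes passed in each of the 6 fits with an array left out. In the authors' values the fitted log2 changes of Frzb and Rsph1 were 0.31 and 0.33.

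Csrp1, a LIM-domain protein of the actin cytoskeleton, went from 7.34, 7.16 and 8.03 to 8.86, 8.80 and 8.87 (1.34, SE 0.22, adjusted p = 0.00401), after day means of 8.56 ± 0.29 on day 4, 7.55 ± 0.37 on day 5 and 7.51 ± 0.46 on day 6. Arl5a, a small GTPase of the Golgi, had a fitted rise of 1.39 (SE 0.19, adjusted p = 0.000663). Its probe read 4.83, 4.72 and 4.70 at day 6, below the lowest detected level of each array, so 1.39 is no measured size. The day 8 arrays read 6.08, 5.99 and 6.35, after 6.21, 6.06 and 6.71 at day 5. One of the other Arl5a probes gave 1.17 and the other 0.11. Nt5e, the ectonucleotidase CD73 that forms adenosine, rose by 1.28 (SE 0.22, adjusted p = 0.00608), and Vstm2b, an immunoglobulin-domain membrane protein, by 1.28 (SE 0.21, adjusted p = 0.00401). Nt5e read 5.44 and 5.40 on day 6 repeats 2 and 3. Those arrays had lowest detected levels of 5.55 and 5.52, so the 1.28 of Nt5e is no measured size. Slco2b1, a transporter of organic anions, rose by 1.30 (SE 0.26, adjusted p = 0.0175) but did not pass without day 6 repeat 1 (1.07, adjusted p = 0.0733), the array on which it was lowest.

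The LH receptor gene rose further. Lhcgr read 9.91, 10.05 and 10.26 on the day 6 arrays and 10.90, 10.77 and 10.95 on the day 8 arrays. The days did not overlap, and the rise was 1.75-fold (log2 0.80, SE 0.15, adjusted p = 0.0166), with 0.87 from its other probe. Without day 6 repeat 1 it was 0.72 with an adjusted p of 0.0503, and without day 8 repeat 1 the adjusted p was 0.079. Its day mean was higher at each later day, with averages of 6.54 ± 0.17 (n = 5) before culture, 7.42 ± 0.14 (n = 3) by day 2, 8.89 ± 0.16 on day 4 and 9.67 ± 0.25 on day 5.

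The other genes of antral granulosa cells did not pass. Lhcgr was the only one of 14 called, and 10 of the 14 were lower at day 8 (median −0.16, or 0.06 without day 6 repeat 1, on which 12 of them were high). The FSH receptor gene Fshr read 11.51, 11.29 and 11.33 at day 6 and 11.79, 11.78 and 11.74 at day 8 (0.39, adjusted p = 0.313). The arrays of both days did not overlap in Fshr, as was the case for 12.0% of all genes. Cyp19a1, the aromatase that makes oestradiol, ran from 11.12 to 12.15 at day 6 and from 11.54 to 11.78 at day 8 (0.05, SE 0.23, adjusted p = 0.954). Inhba, the activin and inhibin beta A subunit, changed by −0.08, Inha by −0.33 and Hsd17b1, which reduces oestrone to oestradiol, by −0.04, none past the threshold. These 3 were among the brightest genes on the arrays, with day 6 means of 14.8, 14.7 and 14.4.

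Genes of theca cells and steroid synthesis were higher in 10 of 13 cases, with a median of 0.25 (0.30 without day 6 repeat 1 and 0.08 in the authors' values) and no call. Insl3, the insulin-like peptide of theca cells, came nearest, at 5.197, 6.48 and 7.03 on the day 6 arrays and 7.22, 7.71 and 7.77 on the day 8 arrays. Its change was 1.33 (SE 0.33, adjusted p = 0.0668), and 0.81 without day 6 repeat 1 (adjusted p = 0.172). Cyp11a1, the side-chain cleavage enzyme that starts steroid synthesis, read 9.51, 9.20 and 9.59 and then 9.87, 9.96 and 10.15 (0.56, adjusted p = 0.318), and Cyp17a1 changed by 0.16 (adjusted p = 0.814). In the luteinisation list Lhcgr was the only call among 10, with a median of 0.38 that was the highest of the 40 lists. Its member Vcam1, an adhesion molecule, read 12.44, 11.90 and 11.60 and then 12.79, 12.98 and 12.88 (0.90, adjusted p = 0.0981). Without day 6 repeat 1 Vcam1 passed (1.13, adjusted p = 0.0315), as it did in the authors' values (0.81, adjusted p = 0.0172). The prolactin receptor gene Prlr read 0.32 (adjusted p = 0.664).

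The adhesion and junction list and the stromal matrix list held 1 call each. Cldn11, a tight-junction claudin, rose from 8.81, 9.51 and 9.17 to 10.67, 10.12 and 10.39 (1.23, SE 0.24, adjusted p = 0.0175). Its adjusted p was 0.0724 without day 6 repeat 1 and 0.12 without day 8 repeat 1. It was the only call of 18 adhesion and gap junction genes, 13 of them higher (median 0.34, 0.31 without day 6 repeat 1 and 0.10 in the authors' values). Gja1, the connexin through which granulosa cells are coupled, changed by 0.08 (adjusted p = 0.815). Thbs2, the matrix glycoprotein thrombospondin 2, rose by 0.99 (SE 0.19, adjusted p = 0.0175), from 8.00, 8.33 and 8.02 to 9.31, 8.94 and 9.05, with an adjusted p of 0.0527 without day 6 repeat 1. Of the 21 stromal matrix genes it was the only call, and the median of −0.24 was 0.03 without day 6 repeat 1, where 18 of the 21 were high.

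Endothelial genes also held 1 call. Robo4, a guidance receptor of endothelial cells, rose by 0.90 (SE 0.21, adjusted p = 0.0440), from 7.59, 7.37 and 7.81 to 8.04, 8.64 and 8.80, but its other probe gave 0.13, and it did not pass without day 6 repeat 1 (adjusted p = 0.0833). Of 14 endothelial markers 10 were higher (median 0.15), and all were above background on at least 1 of the 6 arrays. Their summed linear signal was 4003 to 5106 at day 6 and 4725 to 5532 at day 8, which overlap, and the part of a change in cell make-up was not tested. Angpt2, angiopoietin 2, a ligand of the endothelial TEK receptor that was named after its values were seen, rose from 12.43, 11.97 and 11.71 to 13.07, 12.68 and 13.01 (0.88, SE 0.18, adjusted p = 0.0251, and 1.08 without day 6 repeat 1). Its day mean was higher at each later day from the 9.07 ± 0.18 of day 0, and its other probe gave the same 0.88.

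**Figure D4:**
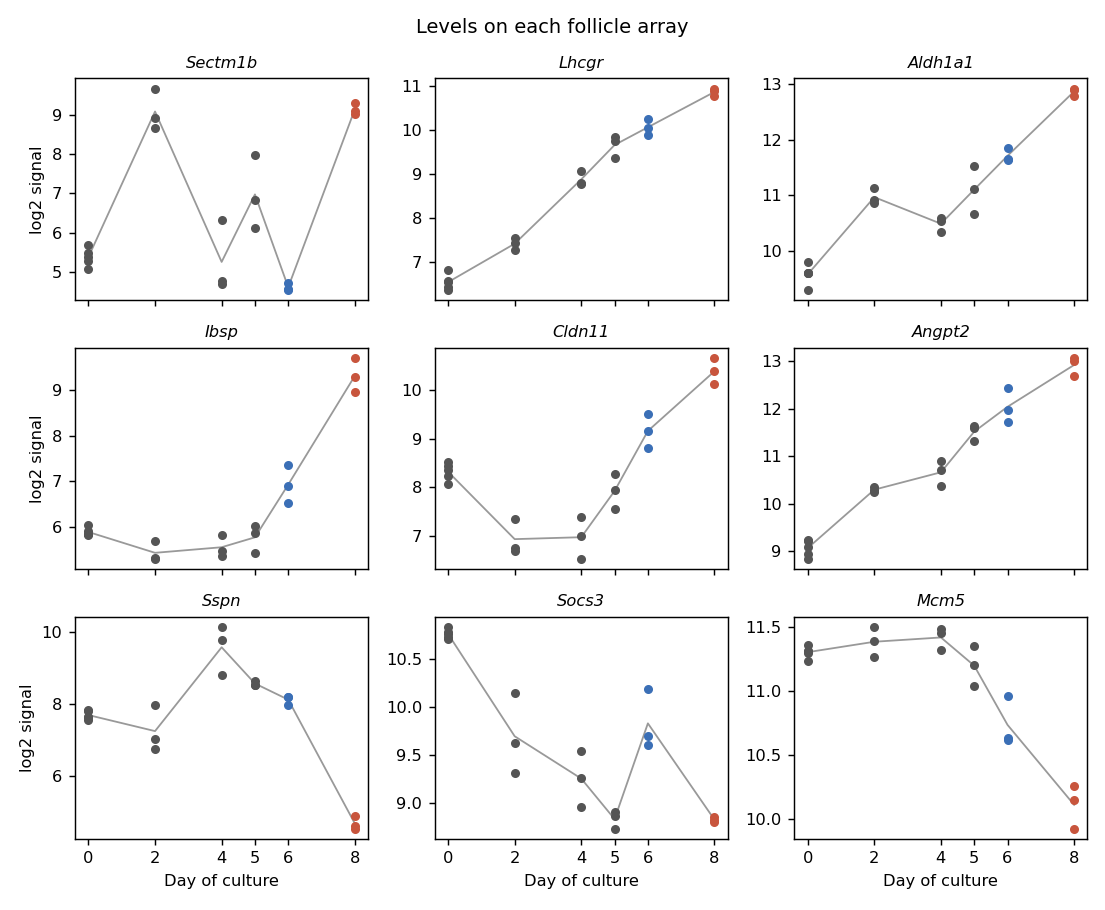
Log2 signal of 9 genes that passed the threshold, on every follicle array (points) by day of culture, with a line through the day means and days 6 and 8 in blue and red. The day means of Lhcgr and Angpt2 are higher at each later day, Sectm1b and Socs3 go up and down, and Sspn drops to background on all 3 day 8 arrays.

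Further rises, again named after their values were seen, were those of Gpt2, an alanine aminotransferase of mitochondria, by 0.92 (SE 0.12, adjusted p = 0.000429, and passing in each fit with an array left out), the glyoxalase Glo1 (0.74), the lysosomal galactosidase Glb1 (0.71), the interleukin gene Il18 (0.93), the sulfotransferase Sult1a1 (1.04), the tetraspanin Tspan8 (1.24), the kinase Nuak2 (1.08) and Tex19.2 (1.22), a germ-cell gene with a near-identical neighbour. Gnrhr, the receptor for gonadotropin-releasing hormone, was not above background at day 6 and read 6.03, 5.53 and 5.82 at day 8, where the highest day 6 array was at 5.48. Of these genes, Glo1 (adjusted p = 0.0774), Glb1 (0.0595), Il18 (0.115) and Gnrhr (0.1001) did not pass without day 6 repeat 1. In all, 8 of the 51 genes that rose were not above background on any day 6 array. Of all 10688 genes, 284 were above background on a day 8 array but on no day 6 array. The filter asked for detection on any 3 follicle arrays, so the arrays of day 8 alone could let a gene in.

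Sspn showed the largest fall. It encodes sarcospan, a membrane protein of the dystrophin complex, and read 8.21, 7.97 and 8.21 at day 6 and 4.54, 4.61 and 4.90 at day 8. It was not above background on any day 8 array and was at least 6.44-fold lower than at day 6 (fitted change −3.45, SE 0.28, adjusted p = 2.09e-06). Before culture its average was 7.70 ± 0.12 (n = 5), then 7.25 ± 0.65 (n = 3) by day 2, 9.58 ± 0.68 on day 4 and 8.58 ± 0.07 on day 5. Sspn, Sectm1b and Aldh1a7 were the named genes that passed under each of the 22 alternative settings run for them. In all, 5 of the 31 genes that fell were not above background at day 8, among them Mapk12, the stress kinase p38 gamma (at least 1.37-fold lower, adjusted p = 0.0186), and the transcription factor gene Klf5 (at least 1.37-fold lower, adjusted p = 0.0205). Of all 10688 genes, 289 were above background on a day 6 array but on no day 8 array. Klf5 did not pass without day 6 repeat 1 (adjusted p = 0.0663) and passed in 2 of the 6 fits with an array left out.

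Falls among regulators of transcription and signalling were led by Klf1. This Krüppel-like factor, known from red cell precursors, read 7.46, 7.89 and 7.80 at day 6 and 5.64, 6.45 and 5.88 at day 8 (−1.73, SE 0.24, adjusted p = 0.000663), a fall that passed in each fit with an array left out. Its earlier course was uneven, with 7.18 ± 0.34 at day 4 and 5.70 ± 0.23 at day 5. Of the 6 red cell markers tested none passed, and 3 were not above background at either day. The summed linear signal of the 6 was 195 to 274 at day 6 and 221 to 231 at day 8. That sum lies near background, so it cannot show a change in red cells. Socs3, a feedback inhibitor of cytokine receptors, fell by 1.00 (SE 0.19, adjusted p = 0.0137), from 9.69, 10.18 and 9.61 to 8.86, 8.80 and 8.82, and had been at 8.83 ± 0.09 at day 5. Gadd45b, a stress gene in the YAP target list, fell by 0.88 (SE 0.19, adjusted p = 0.0259), while Nt5e of the same list rose. Their 9 companions did not pass, and the list's median was −0.03.

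Erdr1, a gene at the edge of the X chromosome with repeated sequence, fell by 1.84 (SE 0.36, adjusted p = 0.0175) from 11.23, 9.61 and 10.00 to 7.84, 8.61 and 8.87. Day 6 repeat 1 was the highest array, and without it the change was −1.36 (adjusted p = 0.0607). Nat8f4, one of several similar acetyltransferase genes, moved by −1.35 (SE 0.28, adjusted p = 0.0209), and passed in 1 of the 6 fits with an array left out, the one without day 6 repeat 1. Slc38a3, a glutamine transporter, fell from 8.49, 8.22 and 7.94 to 6.86, 6.87 and 7.03 (−1.30, SE 0.22, adjusted p = 0.00607). Its levels had been higher from day 4 to day 6 (8.08 to 8.28 in the day means) than at day 2 (5.39 ± 0.21), and day 8 lay in between.

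Matrix and protease genes were also among the falls. Mmp23, a membrane-bound metalloprotease of ovary and other tissues, fell by 0.80 (SE 0.13, adjusted p = 0.00499) from 9.91, 10.14 and 10.01 to 9.37, 9.31 and 8.98, after day means between 9.84 and 10.13 up to day 6. It passed in each of the 6 fits with an array left out. Adamts19, another metalloprotease, fell by 0.85 (SE 0.15, adjusted p = 0.00967), and the cartilage collagen gene Col9a2 by 1.19 (SE 0.24, adjusted p = 0.0175), although the latter did not pass without day 6 repeat 1 (adjusted p = 0.0658). Mmp23 was the only call of 16 matrix protease genes, whose median was −0.06.

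Some genes of growth metabolism and DNA replication fell. Srm, spermidine synthase, fell by 0.99 (SE 0.18, adjusted p = 0.0125), from 11.11, 10.46 and 10.56 to 9.39, 10.00 and 9.77, with both of its other probes lower as well (−0.63 and −0.89). Mthfd1, a folate enzyme that serves purine synthesis, fell by 0.65, and Bcat1, which starts the breakdown of branched-chain amino acids, by 0.80 (adjusted p = 0.0454), a call lost in each of the 6 fits with an array left out. Chac1, which degrades glutathione and is a target of ATF4, fell by 0.72 (adjusted p = 0.0482), and passed in 1 of those 6 fits. It was the only call of 18 amino acid response genes, of which 14 were lower at day 8, with a median of −0.43 (−0.27 without day 6 repeat 1). Psat1, of serine synthesis, missed the threshold at −0.65 (adjusted p = 0.0527), as did Asns, asparagine synthetase, at −0.48 (adjusted p = 0.107). Asns passed in the authors' values (−0.41, adjusted p = 0.0232).

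In the DNA replication list Mcm5 and Lig1 fell and 17 of 19 genes were lower, with a median change of −0.29. Mcm5, a subunit of the replicative helicase, read 10.96, 10.63 and 10.61 at day 6 and 9.92, 10.14 and 10.26 at day 8 (−0.63, SE 0.13, adjusted p = 0.0260). Lig1, the ligase that joins Okazaki fragments, read 10.21, 9.58 and 9.59 and then 8.96, 9.09 and 9.21 (−0.71, SE 0.16, adjusted p = 0.0421). Neither passed without day 6 repeat 1 (Mcm5 −0.51, adjusted p = 0.0833, and Lig1 −0.50, adjusted p = 0.129), which was the highest array for both, and the list then held no call with a median of −0.35. Of 3 other Lig1 probes, 2 gave 0.05 and 1 gave −1.08. The other helicase subunits measured, Mcm2 (−0.50), Mcm3 (−0.89), Mcm4 (−0.18), Mcm6 (−0.62) and Mcm7 (−0.50), did not pass, nor did Pcna, the polymerase clamp, at 0.45. Cenpq, a centromere protein, fell by 1.09 (SE 0.18, adjusted p = 0.00530). Chtf18, a clamp-loading factor, changed by −0.68 (adjusted p = 0.0415), a call that held in 0 of the 6 fits with an array left out (adjusted p = 0.0561 without day 6 repeat 1 and up to 0.159).

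Mitosis genes were lower in 16 of 17 cases, with a median of −0.22 (−0.32 without day 6 repeat 1) and no call. Over all genes 5265 of 10688 were lower, and the median was 0.00. Examples are Top2a, topoisomerase II alpha, at −0.68 (adjusted p = 0.404), Prc1 of the central spindle at −0.40 (adjusted p = 0.363) and Cenpa, the centromeric histone, at −0.14. In the step before, day 6 minus day 4, the same lists had medians of −0.66 (replication) and −0.72 (mitosis). Both steps use the day 6 arrays.

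The promoters of both lists show the letter patterns that these gene classes are known for, and a few sites are printed because nearly all genes of both lists were lower at day 8. E2F factors control genes of DNA synthesis, and the CHR element is the docking site of the MuvB complex at mitosis genes. Windows ran from 250 bases before to 50 bases after the start in RefSeq (GRCm38.p6), were at hand for 8176 of the genes tested, and were searched on both strands, after the values were seen. The E2F letters TTTCCCGC, TTTGGCGC or TTTCGCGC were found in 44.4% of replication promoters (8 of 18), 6.25% of mitosis promoters and 3.96% of all (324 of 8176). The CHR letters TTTGAA or TTCGAA were found in 81.2% of mitosis promoters (13 of 16), 27.8% of replication promoters and 16.5% of all (1351 of 8176). Among genes that fell, 10.0% held the E2F letters (2 of 20, Mcm5 and Lig1) and 20.0% the CHR letters, and among those that rose these were 2.44% (1 of 41) and 9 of 41. A match of letters is a description and not a measured binding site. The sites read, with the matched letters in capitals and 5′ to 3′ on the strand of the gene:
Mcm5, E2F, chr8:75109345-75109374, plus strand: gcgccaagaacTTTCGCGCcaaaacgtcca
Lig1, E2F, chr7:13278841-13278870, plus strand: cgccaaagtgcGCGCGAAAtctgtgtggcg
Mcm6, E2F, chr1:128359734-128359763, minus strand: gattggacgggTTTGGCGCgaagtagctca
Cdc20, CHR, chr4:118437344-118437373, minus strand: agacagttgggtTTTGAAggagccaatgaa
Cdk1, CHR, chr10:69352910-69352939, minus strand: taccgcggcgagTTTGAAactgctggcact
The Mcm5 stretch holds a further E2F match on the opposite strand that overlaps the capitals. Lig1 matches on the opposite strand.

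None of 28 oocyte genes passed, and the median of 0.16 was −0.08 without day 6 repeat 1, on which 21 of them were low. Gdf9 read 11.31, 11.94 and 11.82 at day 6 and 11.59, 11.78 and 11.84 at day 8 (0.05, SE 0.17, adjusted p = 0.944). The growth factor Bmp15 changed by 0.00 and the zona protein Zp3 by 0.49 (adjusted p = 0.494), or 0.10 without day 6 repeat 1. Khdc3, a maternal protein of the oocyte cortex, came nearest to a call at 0.69 (adjusted p = 0.0598). The preantral list had no call among 9, with Amh, anti-Müllerian hormone, above background on 1 of the 3 day 6 arrays and on no day 8 array (adjusted p = 0.659).

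Of the 702 genes in 40 lists, 569 were tested and 13 passed, 8 rising and 5 falling, where 0.767% of all genes passed (0.477% rising and 0.29% falling), and 29 lists held no call. Cholesterol synthesis had none of 19 (median −0.07), fatty acid synthesis none of 12 (0.19), glycolysis and hypoxia none of 23 (0.05), the basement membrane none of 16 (−0.08), heat shock none of 15 (−0.01), immediate early genes none of 17 (−0.11) and p53 and apoptosis none of 19 (0.07). Respiratory chain genes were higher in 16 of 22 cases with a median of 0.28, which was −0.04 without day 6 repeat 1, and oxidative stress genes were higher in 20 of 23 with a median of 0.19, which was −0.02 without that array. Macrophage markers had none of 13 past the threshold, and their summed linear signal was 4766 to 5990 at day 6 and 4480 to 7685 at day 8. The lists for smooth muscle and pericytes (9 tested), surface epithelium (6), brain (4) and leukocytes (4) held no call.

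**Figure D5:**
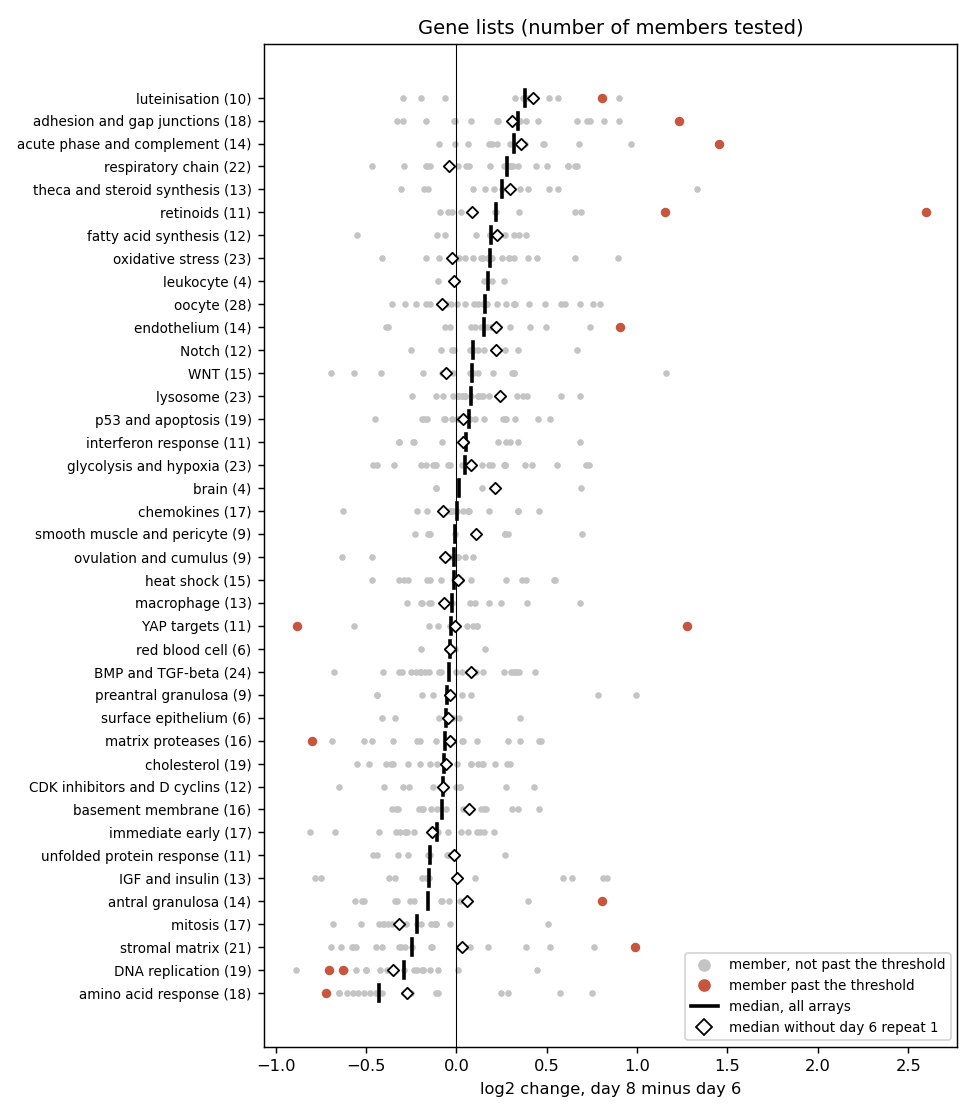
Log2 change from day 6 to day 8 of every tested member of the 40 gene lists (points, red where past the threshold), with the list median over all arrays (bar) and without day 6 repeat 1 (open diamond). The medians run from −0.43 for the amino acid response to 0.38 for luteinisation. Many cross 0 without that array, among them those of the oocyte, respiratory chain, oxidative stress, stromal matrix, antral granulosa, basement membrane and WNT lists.

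Leaving out day 6 repeat 1 also brought in genes. Kitl, the KIT ligand through which granulosa cells act on the oocyte, read 8.82, 7.34 and 6.93 at day 6 and 8.32, 8.63 and 9.12 at day 8, so the days overlapped only through repeat 1. Its change was 0.99 (adjusted p = 0.319) with that array and 1.56 (adjusted p = 0.0187) without it. Igf1, the insulin-like growth factor of granulosa cells, read 9.08, 10.71 and 10.68 and then 9.95, 9.78 and 9.72, a change of −0.34 (adjusted p = 0.697) with the array and −0.88 (adjusted p = 0.0164) without. Nupr1, a stress-induced chromatin protein of the amino acid response list, had −0.65 (adjusted p = 0.605) with it and −1.42 (adjusted p = 0.00696) without. For these 3 genes, named after their values were seen, the other day 6 arrays lay close together on the far side of repeat 1.

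The change of pace was tested directly, as the step from day 6 to day 8 minus the step from day 4 to day 6. That difference passed in 54 genes (0.505%), 21 positive and 33 negative, and in 42 of them the steps had opposite signs. Selection by the difference favours opposite signs, so the 42 do not show that genes turned at day 6. Since both steps contain the day 6 arrays with opposite weight, an array far from its mates at day 6 moves this test more than the simple comparison. Without day 6 repeat 1, 32 genes passed (0.299%), 21 of them among the 54. Of the 54, 11 had also passed between day 6 and day 8.

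Comp, cartilage oligomeric matrix protein, had the largest negative difference. It rose by 5.16 from day 4 to day 6 and then read 11.29, 11.01 and 10.70 on the day 6 arrays and 11.28, 11.16 and 10.77 on the day 8 arrays, a change of 0.07 (SE 0.29) and a difference of steps of −5.09 (SE 0.51, adjusted p = 6.61e-05; −4.80 without day 6 repeat 1, adjusted p = 0.00187). Grem1, the BMP antagonist gremlin, changed by 2.58 before day 6 and 0.31 after it (difference −2.27, SE 0.35, adjusted p = 0.00469). Plau, the urokinase plasminogen activator, went up by 2.25 and then read −0.69 (difference −2.94, SE 0.46, adjusted p = 0.00504). The transcription factor genes Klf2 (−2.20, adjusted p = 0.000333), Atf3 (−2.84, adjusted p = 0.0196), Fosb (−2.26, adjusted p = 0.0358) and Junb (−1.99, adjusted p = 0.0216) had differences of the same sign. Those of Fosb (adjusted p = 0.110) and Junb (adjusted p = 0.102) did not pass without day 6 repeat 1.

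Among positive differences Sectm1b had a fitted value of 5.17 (SE 0.69, adjusted p = 0.00101; 5.29 without day 6 repeat 1, adjusted p = 0.00643), which is no measured size because the gene was not above background at day 6. Tex19.2 had fallen by 1.61 before day 6 and rose by 1.22 after it (difference 2.83, SE 0.40, adjusted p = 0.00162). Mycl, a MYC family factor, had fallen by 2.52 and then changed by −0.04 (difference 2.48, SE 0.32, adjusted p = 0.000754). Csrp1 had fallen by 1.05 before its rise (difference 2.39, SE 0.37, adjusted p = 0.00504). These genes were named after their values were seen.

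The step from day 2 to day 4 shares no array with the last step. Of the 51 genes that rose after day 6, 22 had been higher at day 4 than at day 2 and 29 lower, with 5 past the threshold upward and 10 downward. Of the 31 that fell, 18 had been higher and 13 lower, with 7 past the threshold upward and 2 downward. Over all genes 49.6% were higher at day 4 than at day 2, 3.05% rose and 5.34% fell.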

How the data were processed

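RNA of pooled follicles was measured on Illumina mouse bead arrays. Per the file headers, the deposited tables give for 25697 probes the mean bead signal as an intensity without normalization, its detection p-value, and the number of beads (an other unit). A table by the authors gives 23286 of these probes as log2 values, deposited as normalized between arrays by a method not given in the sources used here. The 20 columns each correlated best with their own sample's intensity.

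Background correction with neqc in limma 3.58.1 (R 4.3.3; detection p, offset 16), quantile normalization and log2 were applied to the 20 follicle arrays. A probe was kept if 3 or more arrays detected it at p under 0.05 (14490 in all), and each symbol was represented by its brightest probe (10688 genes, 15 of them with symbols that a spreadsheet had turned into dates or numbers). Symbols were brought up to date with RefSeq (GRCm38.p6): 14307 were current, 2902 were updated and 904 kept. On this log2 scale the offset shrinks changes of dim genes. Detection of a gene was counted over all probes of its symbol. Changes from day 6 to day 8 of genes not detected on any array of a day are given as "at least", computed against each array's lowest detected level. These bounds hold for this background correction and normalization only. Any fitted change or difference of steps printed for such a gene is no measured size. The same holds where only some arrays of a day read below that level, as for Klk1b24, Nt5e and Tex19.2 at day 6.

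One mean per day was fitted with lmFit and eBayes, with Benjamini-Hochberg adjustment over all genes and a threshold of 0.05. The contrasts were day 8 minus day 6, and that change minus the change from day 4 to day 6. The fit was checked on simulated data. For named genes the rule took, from called genes whose arrays of both days did not overlap, the 15 largest rises and the 15 largest falls, and up to 4 called and 2 uncalled members of each list, without RIKEN, Gm or LOC names. The members, the 40 lists and the rules were chosen with earlier results of these data known. Precision is limited by 3 arrays a day. Between 46.8% and 51.3% of probes were detected on the 6 arrays. Alternatives covered background correction, scaling, the authors' values, filters, probe choice, the arrays in the fit, array weights, a replicate block and leaving out each array. No slide or scan batch is given in the sources used here.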

Additional observations from a re-analysis of the deposited data

Results flagged for a closer look

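Of the 38 named genes that passed between day 6 and day 8, 8 also passed in the limma contrast of that step with the step from day 4 to day 6. The 38 were picked by a step that is part of this contrast. Their share therefore cannot be set against the 0.505% of all genes that passed. The difference was 5.17 for Sectm1b, 2.39 for Csrp1, 2.099 for Rsph1, 1.68 for Frzb and 1.46 for Klk1b24, and −2.26 for Klf1, −1.58 for Socs3 and −1.55 for Mapk12, all fitted values on the log2 scale. Sectm1b, Rsph1 and Frzb were not above background on any day 6 array and Mapk12 on no day 8 array, so their values are no measured sizes. Klk1b24 was above background on 1 of 3 day 6 arrays, and the same holds for its value. Without day 6 repeat 1 the adjusted p was 0.00643 for Sectm1b, 0.0315 for Csrp1, 0.0369 for Frzb and 0.0230 for Klf1, while Rsph1 (0.106), Klk1b24 (0.143), Socs3 (0.0620) and Mapk12 (0.0601) did not pass.

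At day 0, the only group large enough for a test of single arrays, 1 array stood far from the other 4 in 2 of the 38 named genes that passed the threshold, where chance flags about 5% of groups. Ces3 read 6.13 on day 0 repeat 1 and 5.85 to 5.90 on the others, and Csrp1 read 8.11 on day 0 repeat 5 and 7.91 to 7.97 on the others. Neither value enters the comparison of day 8 with day 6 other than through the shared estimate of spread.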

How the results depend on the processing

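No call of the 38 named genes that passed reversed: over 826 pairs of gene and setting, 589 stayed past the threshold and 237 did not. Of 1706 pairs for the 78 other named genes, 14 passed, and in 211 the sign changed without a call. Against 82 genes (51 rose, 31 fell), 125 passed in the authors' values (91 and 34), 254 with array weights, 3 with the 6 arrays alone, 23 with a replicate block in the 15 cultured arrays and 23 in those arrays without it. With an array left out the count ran from 34 to 81. Added after the data were seen and without day 6 repeat 1, 12 passed with 5 arrays alone and 141 in the authors' values. Median scaling gave 59 (48 and 11), a split of 81.4% higher in place of 62.2%, where the authors' values gave 72.8%. Changes of at least 1 log2 unit numbered 39 genes, against 14 without background correction, 5 in the authors' values, 3 with the 6 arrays alone, 59 with array weights, 20 with the block, 22 in the cultured arrays, 25 to 43 with an array left out, and, without day 6 repeat 1, 12 with 5 arrays alone, 16 without background correction and 7 in the authors' values. In the authors' values 53 of the 73 called genes they hold changed by less than the printed size divided by 1.5. The difference of steps passed in 54 genes, and in 28 with median scaling, 3 with its own arrays alone, 175 with array weights, 6 with the block, 8 in the cultured arrays without it, 32 without day 6 repeat 1 normalized again, and 24 to 49 with an array left out. Same-numbered arrays of both days had correlations of deviations of −0.32, −0.16 and −0.31, and differently numbered ones ran from −0.45 to 0.46. With 3 arrays a day these values show no pairing by repeat number but cannot tell whether the repeats are paired. Why the counts move was not tested.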
